A study of Rattus norvegicus with 20 samples.

Results

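The cytosolic ribosome is built from ribosomal RNA and the proteins of a large (Rpl) and a small (Rps) subunit, with a stalk of Rplp0, Rplp1 and Rplp2 that receives the translation factors. The genes of these proteins are among the most strongly transcribed of any cell, and their mRNAs carry a terminal oligopyrimidine tract (TOP), a C followed by a run of C and T at the 5′ end, through which mTOR signalling adjusts their translation to nutrients. Lymphocytes, with little cytoplasm and few other abundant mRNAs, are known for a high share of ribosomal protein mRNA.

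The members were chosen by name, without the use of a measured difference. They are the probe sets whose only annotated symbol starts with Rpl or Rps and a digit, or with Rplp or Rpsa, without the Rps6k kinases and names ending in -ps, with the probe set of the highest mean signal kept for each gene. This gave 73 genes of the 14497 with a single symbol, namely 39 of the large subunit, 26 of the small subunit, 3 of the stalk and 5 exceptions. The exceptions are Rpl22l1, Rpl36al1, Rpl37l1 and Rps4y2, whose names mark copies of a ribosomal protein gene, and Rps19bp1, a protein that binds Rps19 and is not part of the ribosome. The 73 genes are read by 232 probe sets, with 1 probe set for 19 genes, 2 or more for 54 genes and as many as 19 for Rpl21. Processed copies of ribosomal protein genes are common in mammalian genomes, and a probe set can read more than 1 copy.

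The study asked how diet acts on blood cells in 2 inbred strains, Wistar Kyoto (WKY) and Lewis (LEW/Crl in the labels). Male rats of each strain received a cafeteria diet (CAF) of energy-dense human foods or a standard chow (STD) for 7 weeks and were 15 weeks old. The 4 groups of 5 rats, with 1 array per rat, were WKY CAF, WKY STD, LEW CAF and LEW STD. The cell type label reads PBMC, the mononuclear cells of blood, whereas the methods describe monocytes purified by adherence. Markers of both kinds were well above the median of all probe sets of 6.86 in every array. The mean log2 signal of 18 T cell markers lay between 10.72 and 11.24, that of 10 B cell markers between 9.68 and 10.10 and that of 14 monocyte markers between 9.84 and 10.78, so that markers of lymphocytes were measured beside those of monocytes. In such bulk RNA, fewer cells of a type and less RNA per cell cannot be told apart. Heat shock genes stood apart in 4 arrays, LEW STD rats 2 and 3, WKY STD rat 1 and LEW CAF rat 2, with a mean deviation of 0.43 to 0.96 on the log2 scale against -0.24 to -0.01 in the other 16 arrays, and the called genes and signs between the groups are also given without them.

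The start sites of 8 of the 10 genes that passed between the strains are shown, since Rpl8 and Rpl30 have no window in the table used, and they are shown because the TOP motif is the feature by which these mRNAs are regulated together. RefSeq promoter windows (assembly GRCr8) were found for 62 of the 73 genes, 61 of them by gene ID and Rps9 by symbol. Each sequence below runs 5′ to 3′ from 10 bases before the annotated start over its first 20 bases. Capitals mark a C followed by at least 4 further C or T on the gene's strand that begins within 5 bases of the annotated start, and sequences without capitals hold no such run there.
Rps9, chr1:74430418-74430447, minus strand: cggccacgtttCTCTTTgtcacgggcctga
Rps23, chr2:23814507-23814536, plus strand: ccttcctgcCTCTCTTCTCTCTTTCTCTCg
Rps26, chr7:1643385-1643414, minus strand: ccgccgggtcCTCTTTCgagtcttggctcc
Rplp0, chr12:46718371-46718400, minus strand: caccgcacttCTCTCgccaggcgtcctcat
Rps12, chr1:23500065-23500094, plus strand: gaagcccagcagagcgcttaaataccgtca
Rps15a, chr1:181860265-181860294, minus strand: ttttctttccacagtcaccatggtgcgaat
Rps19, chr1:89608678-89608707, plus strand: cttgtgcgcccgggaaaccccgtcgttccc
Rpl36al1, chr6:93392239-93392268, minus strand: cttccgctccatccgtccctttcctgttcg

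Such a run lay within 5 bases of the start in 38 of the 62 windows (61.3%) and exactly at the start in 23 (37.1%), against 17.0% and 2.63% of all 33469 windows. For 63 Mrpl and Mrps genes, which encode the proteins of the mitochondrial ribosome, the shares were 23.8% and 3.17%. Of the 8 genes shown, 4 hold the run and 4 do not. The motif CCGGAAG, the core site of ETS factors, was in 18 of the 62 windows of 300 bases (29%), on either strand, in 20 of the 63 windows of the Mrpl and Mrps genes (31.7%) and in 8.74% of all windows. A match is a description of the letters near an annotated start, and a start annotated some bases away from the one in use hides a run.

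Across the groups the members gave high and even signals. Their median of mean log2 signals was 12.65, against 6.86 over all probe sets, and 62 of the 73 lay above 11.2, the 95th percentile of all probe sets. The largest mean signals were those of Rps29 (13.93), the X-linked Rps4x (13.88) and Rpl28 (13.85), and the smallest those of Rps27 (7.05), Rps4y2 (7.13) and Rpl22l1 (7.68), but signals of different probe sets are not a measure of relative mRNA amount. The standard deviation within groups had a median of 0.0701 over the members, below the 0.110 of all probe sets and the 0.0927 of the probe sets above the 95th percentile, and it was under 0.1 for 57 of the 73. Rats of 1 group therefore differed little in most members, and the standard error of their fold changes had a median of 0.05. The 5 members with the widest spread were Rps25 (1.00), Rpl22l1 (0.215), Rps10 (0.169), Rps27 (0.167) and Rpl41 (0.156).

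Differences were tested with limma over all 28826 probe sets and called at a Benjamini-Hochberg adjusted p under 0.05. On STD, 9 of the 73 genes fell in WKY rats and 0 rose, with 1 gene higher and 25 lower at an unadjusted p under 0.05 (26 of 73, beside 23.3% of all probe sets). The share of lower calls, 12.3%, stands beside 5.38% of all probe sets that were lower and 5.88% that were higher (1552 and 1695, or 1960 and 1404 with each array centred on its median). Bright probe sets were called more often. In the fit of the 14413 probe sets above the median signal, 1532 were lower and 1426 higher, and 10 of the 73 members were lower. Most members are bright, so the shares over all probe sets are a low comparison for them. Of the 9, 6 were of the small subunit (Rps9, Rps12, Rps15a, Rps19, Rps23 and Rps26), and Rpl8, Rplp0 and Rpl36al1 made up the rest. On CAF, 1 gene rose in WKY rats (Rpl30, beside 4.24% of all probe sets higher) and 1 fell (Rps9, beside 3.34% lower). The WKY and LEW rats did not overlap for 6 lower genes and 0 higher ones on STD (beside 4.09% and 4.37% of all probe sets), and for 3 lower genes and 1 higher on CAF (beside 3.64% and 4.16%). The median log2 fold change of the members was -0.08 on STD and -0.02 on CAF, against -0.0026 and -0.0092 over all probe sets. Over the 14413 probe sets above the median signal it was -0.0225 on STD and -0.0029 on CAF. On STD, 65 of 73 were lower in WKY rats (89.0%, beside 51% of all probe sets), and on CAF 47 of 73 (64.4%, against 54.2%). Lower on both diets were 43 of 73 (58.9%, against 35.3%), and these pairs of groups share no array.

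**Figure D1:**
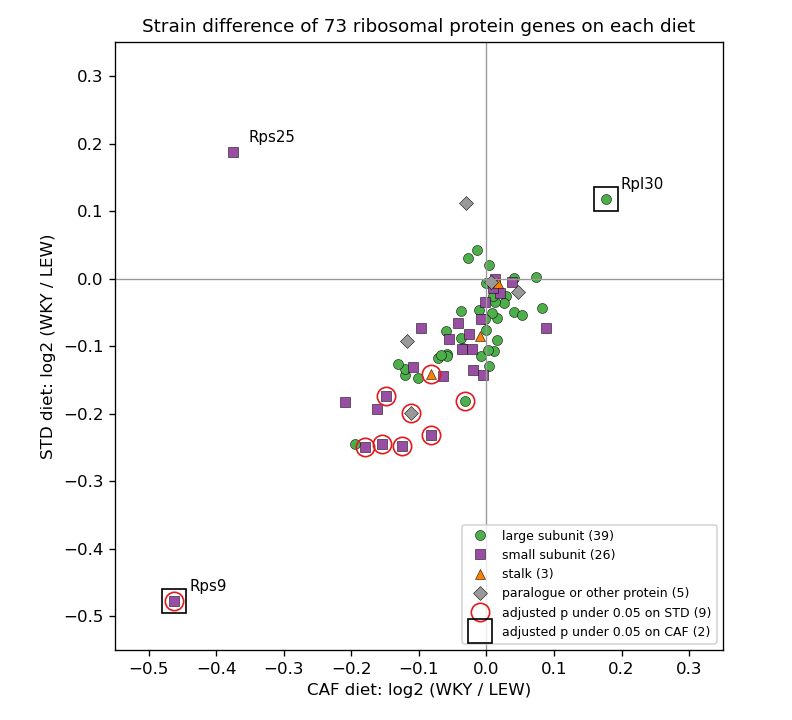
Log2 fold change of WKY over LEW rats on CAF (x axis) and on STD (y axis) for the 73 genes, with 1 symbol per gene by class. Rps9 stands alone at -0.46 and -0.48, Rpl30 is the gene that rose on CAF, and most other genes lie below 0 on the STD axis.

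Rps9, a protein of the small subunit near the decoding site, had the largest difference that passed among the brightest probe sets of the genes, and it did so on both diets. A second probe set of Rps23 differed by more, and so did Rps23 by the mean of its probe sets (-0.53 on CAF and -0.61 on STD). On CAF the log2 signal of Rps9 was 11.09, 11.05, 11.10, 11.17 and 11.03 in WKY rats, against 11.49, 11.51, 11.57, 11.56 and 11.61 in LEW rats. On STD it was 11.14, 11.01, 11.04, 10.97 and 10.98 in WKY rats, against 11.53, 11.52, 11.59, 11.39 and 11.49 in LEW rats. All 10 WKY rats lay below all 10 LEW rats. The log2 fold change was -0.46 on CAF (SE 0.05, adjusted p = 7.32e-07) and -0.48 on STD (SE 0.05, adjusted p = 4.33e-07). The signal of this probe set was thus 1.38-fold and 1.39-fold lower in WKY rats. The second Rps9 probe set was dimmer, at a mean of 8.06, and fell on CAF (-0.42, SE 0.08, adjusted p = 0.00309), but on STD it was at -0.25 (SE 0.08, adjusted p = 0.0612) with groups that overlapped. The third, at 7.94, did not pass on either diet, and the mean of all 3 probe sets was -0.20 on CAF (adjusted p = 0.117) and -0.24 on STD (adjusted p = 0.0342).

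Rps23, which reaches into the decoding centre, was lower on STD, and its 3 probe sets differed in size. The one with the highest signal read 12.37, 12.01, 12.33, 12.20 and 12.16 in WKY STD rats, against 12.49, 12.54, 12.45, 12.38 and 12.45 in LEW STD rats, with no overlap (-0.25, SE 0.06, adjusted p = 0.0102). On CAF the same probe set gave -0.18 (SE 0.06, adjusted p = 0.0859) and the groups overlapped. The second probe set gave 11.56, 11.69, 11.61, 11.64 and 11.64 in WKY CAF rats, against 12.72, 12.62, 12.68, 12.75 and 12.67 in LEW CAF rats. The strains were far apart on it, at -1.06 on CAF (SE 0.10, adjusted p = 2.81e-07) and -1.14 on STD (SE 0.10, adjusted p = 9.00e-08), and on the third probe set they differed by -0.33 (adjusted p = 0.0140) and -0.43 (adjusted p = 0.00132). All 3 probe sets of Rps23 thus had a lower signal in WKY rats, but the size ranged from under 0.2 to over 1 on the log2 scale. Probe sequences were not available. Whether sequence variants between the strains, or shared copies, alter the signal of Rps9, Rps23 or other members was not tested.

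Rps12, of the small subunit, had the second smallest p of the members on STD. It read 11.34, 11.26, 11.26, 11.20 and 11.21 in WKY STD rats, against 11.53, 11.53, 11.55, 11.40 and 11.42 in LEW STD rats. The groups did not overlap, and the log2 fold change was -0.23 (SE 0.05, adjusted p = 0.00232). Of its 3 other probe sets, 2 fell as well, at -0.35 and -0.27 (adjusted p = 0.00294 for both). On CAF, Rps12 was at 11.43 ± 0.06 in WKY rats and 11.52 ± 0.07 in LEW rats (SD, n = 5 each), which did not pass.

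Rps19 and Rps26 are proteins whose mutation causes Diamond-Blackfan anaemia in humans. Rps19 read 11.86, 11.71, 11.76, 11.84 and 11.83 in WKY STD rats, against 12.21, 12.04, 12.02, 11.84 and 12.11 in LEW STD rats. A single LEW rat, number 4, lay within the range of the WKY rats, and the difference was -0.25 (SE 0.07, adjusted p = 0.0206), with 2 more Rps19 probe sets lower at -0.21 and -0.20. Rps26, at the channel where mRNA leaves the ribosome, read 12.03, 12.10, 11.99, 12.01 and 11.95 in WKY STD rats, against 12.23, 12.24, 12.26, 12.09 and 12.12 in LEW STD rats. Its groups met at 1 rat each, with a difference of -0.17 (SE 0.05, adjusted p = 0.0164), and on CAF it was -0.15 (SE 0.05, adjusted p = 0.0532) with no overlap. Rps15a read 11.44, 10.98, 11.27, 11.24 and 11.19 in WKY STD rats, against 11.47, 11.49, 11.48, 11.37 and 11.55 in LEW STD rats. WKY STD rat 1 lay within the LEW range, and the difference of -0.25 (SE 0.08, adjusted p = 0.0438) was the closest to the threshold of the 9.

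In the large subunit 1 of 39 genes passed on STD, in the stalk 1 of 3, and 1 of the 5 exceptions. In the small subunit 6 of 26 passed, and 5.38% of all probe sets were lower, a share that was larger above the median signal (1532 of 14413). This contrast depends on the probe set kept for each gene. Other probe sets fell for Rpl5, Rpl7a, Rpl10a, Rpl13 and Rpl29 of the large subunit and for Rps13 of the small subunit. Rpl8, which lies next to the site of peptide bond formation, read 11.33, 11.22, 11.24, 11.21 and 11.09 in WKY STD rats, against 11.43, 11.41, 11.43, 11.32 and 11.41 in LEW STD rats. The difference was -0.18 (SE 0.04, adjusted p = 0.0102), with 1 WKY rat above the lowest LEW rat. Rplp0, which anchors the stalk, read 12.87, 12.83, 12.80, 12.81 and 12.76 in WKY STD rats, against 13.01, 13.02, 12.94, 12.89 and 12.93 in LEW STD rats. Its groups did not overlap (-0.14, SE 0.04, adjusted p = 0.0125), and its second probe set fell by 0.18 (adjusted p = 0.00890). The stalk partners Rplp1 and Rplp2 did not pass. Rpl36al1, a copy of the gene of the large subunit protein Rpl36a, read 11.19, 10.95, 11.04, 11.14 and 10.95 in WKY STD rats, against 11.30, 11.31, 11.20, 11.19 and 11.26 in LEW STD rats. It was lower in each WKY rat than in any LEW rat, by a narrow gap (-0.20, SE 0.05, adjusted p = 0.0155), and its dim second probe set did not pass.

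**Figure D2:**
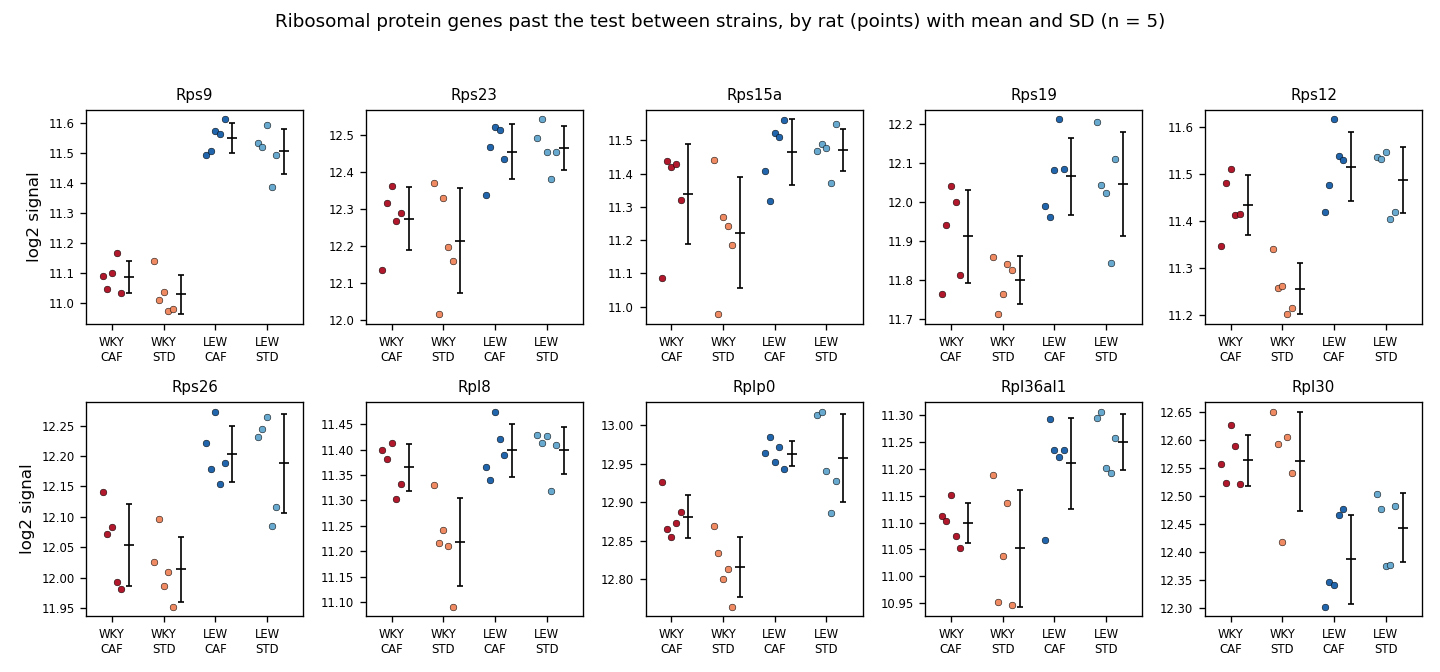
Log2 signal (y axis) of the 10 genes that passed in a comparison of the strains, in the groups WKY CAF, WKY STD, LEW CAF and LEW STD, with 1 point per rat and the mean ± SD of 5 rats at the right of each group. The 10 WKY rats of Rps9 lie at 11.17 or below and the 10 LEW rats at 11.39 or above, and each panel has its own y axis.

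Rpl30, a protein of the large subunit, was the member that rose. On CAF it read 12.56, 12.52, 12.63, 12.59 and 12.52 in WKY rats, against 12.30, 12.35, 12.34, 12.47 and 12.48 in LEW rats. The groups did not overlap, and the difference was 0.18 (SE 0.05, adjusted p = 0.0314). On STD it was at 12.56 ± 0.09 in WKY rats and 12.44 ± 0.06 in LEW rats (SD, n = 5 each), which did not pass. The call on CAF ended in 6 of the 20 fits that left out 1 array (WKY CAF rat 1, 3 or 4, or LEW CAF rat 1, 2 or 3), without the 4 arrays of high heat shock signal (adjusted p = 0.0738) and with the mean of its 2 probe sets (0.12, adjusted p = 0.175). The 5 members of smallest p on CAF were Rps9, Rpl30, Rps26, Rps23 and Rpl10a, and Rpl10a, of the large subunit, differed by -0.12 (SE 0.05, adjusted p = 0.156) with groups that overlapped.

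Among all 232 probe sets of the 73 genes, 22 were lower and 0 higher in WKY STD rats, and they belonged to 15 genes. The lower ones were 9.48% of the 232, beside 5.38% of all probe sets, while 5.88% of all probe sets were higher. In the fit of the probe sets above the median signal, 1532 of 14413 were lower. Beyond the 9 genes above, a probe set other than the member fell for Rpl13, Rpl5, Rps13, Rpl29, Rpl7a and Rpl10a, at log2 fold changes of -0.17 to -0.26. On CAF, 5 probe sets were lower (2.16%, beside 3.34% of all) and 2 higher (0.862%, beside 4.24%). One of the 2 was a dim Rpl21 probe set (mean 4.94) at 0.58 (adjusted p = 0.00944), while the member probe set of Rpl21 was at -0.01. In the 54 genes with several probe sets, the 2 brightest had the same sign of the strain difference for 48 genes on STD and for 44 on CAF.

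Of the 9 calls on STD, those of Rps9, Rps12, Rps23, Rpl8 and Rplp0 held in each of the 20 fits without 1 array. That of Rps15a ended in 12, that of Rps19 without WKY STD rat 2, LEW STD rat 1 or LEW STD rat 5, and those of Rps26 and Rpl36al1 without WKY STD rat 5. Leaving out WKY STD rat 1, an array of high heat shock signal, raised the number of lower genes to 14, with Rpl3, Rpl14, Rpl29, Rps13 and Rps24 added. Of all 28826 probe sets, 1638 were then lower and 1776 higher. Without all 4 such arrays, 7 genes were lower on STD (9.59%, beside 5.13% of all probe sets lower and 5.36% higher). Of these 7, 6 were among the 9. On CAF 1 gene (Rps9) was lower (1.37%, beside 3.53% of all probe sets lower and 4.59% higher). The sign counts without these arrays were 64 of 73 lower on STD and 48 of 73 lower on CAF, and for the diet 62 of 73 higher in WKY rats, 39 of 73 in LEW rats and 57 of 73 above 0 in the interaction. Signs over all probe sets were not counted in this fit. Their medians were, in the same order, -0.0036, -0.0099, -0.0114, -0.0055 and -0.0035.

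Some of the T cell markers were lower in WKY rats on both diets. On STD, 10 of 18 T cell markers were lower in WKY rats and 0 higher, and on CAF 5 were lower and 0 higher. The mean T cell marker signal of an array was 10.72 to 10.98 in WKY STD rats, against 11.08 to 11.24 in LEW STD rats, and 10.73 to 10.96 in WKY CAF rats, against 10.99 to 11.15 in LEW CAF rats. B cell markers differed by diet, with 2 of 10 lower and 0 higher on STD (median -0.04) and 0 lower and 1 higher on CAF (median 0.12, with 8 of 10 above 0). The score of T and B cell markers, their mean deviation from the mean of the 20 arrays, ran from -0.23 to -0.03 in WKY STD rats, against 0.04 to 0.24 in LEW STD rats, without overlap. With this score as a covariate, 1 gene (Rps9) was lower on STD instead of 9 (1.37% of the members). Over all probe sets the calls on STD also fell, to 330 higher and 256 lower (0.888% lower), against 1695 and 1552 without the score. With the score the median of the members was 0.01 on STD and 0.02 on CAF, and Rps9 kept -0.40 (SE 0.08, adjusted p = 0.00746) on STD and -0.43 (SE 0.05, adjusted p = 2.35e-05) on CAF. Score and strain move together, so that this fit has wider errors. Rps23 was at -0.21 (SE 0.11, adjusted p = 0.460) and Rps12 at -0.18 (SE 0.08, adjusted p = 0.392) on STD. Rps15a was at -0.20, against -0.25 without the score. Other estimates moved further, to -0.12 for Rps19 (from -0.25), -0.08 for Rpl36al1 (from -0.20) and -0.07 for Rpl8 (from -0.18). Rps26 and Rplp0 were both at -0.05 (from -0.17 and -0.14). The part of the cell mixture in the strain differences, that of Rps9 included, was not tested beyond this fit.

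**Figure D3:**
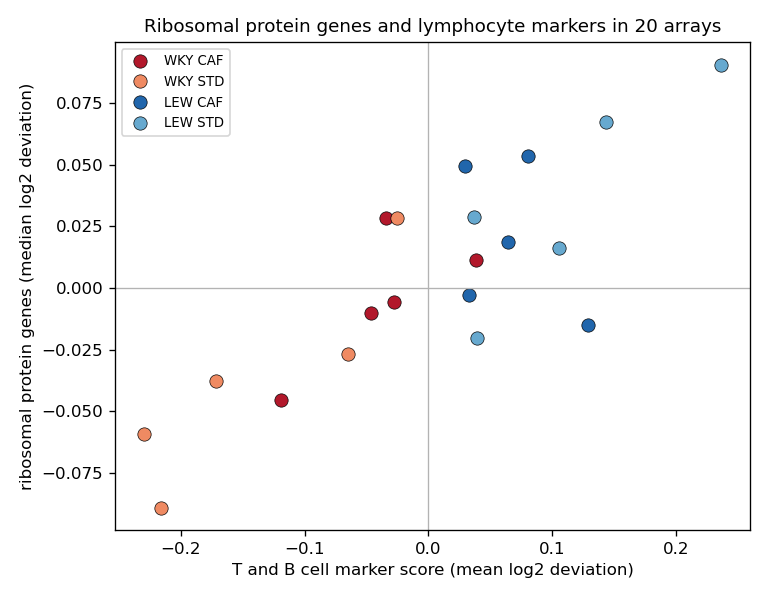
Median deviation of the 73 genes from their means over all arrays (y axis, log2) against the T and B cell marker score (x axis, mean log2 deviation), with 1 point per rat coloured by group. WKY STD rats lie at scores of -0.23 to -0.03 and LEW STD rats at 0.04 to 0.24.

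Other cell types moved as well, and their part in the members' differences was not tested. Of 11 natural killer cell markers, 8 were higher and 1 lower in WKY rats on each diet, and of 13 neutrophil markers 9 were higher on STD and 5 on CAF with 0 lower. Of 14 monocyte markers, 2 were higher and 4 lower on STD, and 4 lower on CAF. Of 5 platelet markers 2 were lower on STD, and of 13 erythroid markers 1 was higher and 2 lower on STD and 1 higher and 3 lower on CAF. The mean neutrophil marker signal was 8.88 to 10.17 in WKY STD rats, against 7.91 to 8.42 in LEW STD rats. The mean monocyte marker signal was 10.28 to 10.56 in WKY STD rats, against 10.55 to 10.72 in LEW STD rats.

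The median deviation of the 73 genes from their means over all arrays gives the level of the whole set in a rat. It was -0.0456 to 0.0284 in WKY CAF rats, -0.0892 to 0.0284 in WKY STD rats, -0.0150 to 0.0537 in LEW CAF rats and -0.0203 to 0.0907 in LEW STD rats. The groups overlapped, and the mean of WKY STD rats (-0.0369 ± 0.0436, SD, n = 5) was the lowest and that of LEW STD rats (0.0365 ± 0.0435, SD, n = 5) the highest. None of the 20 arrays was shifted by more than 0.0907 on the log2 scale.

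The diets were compared within each strain, and 0 of the 73 genes passed in WKY or in LEW rats with limma, as did 0% of all probe sets. At an unadjusted p under 0.05, 4 of 73 (5.48%) were higher and 0 lower in WKY rats, where 8.81% of all probe sets had such a p, and 2 of 73 (2.74%) were lower and 0 higher in LEW rats, where 5.46% did. In WKY rats 58 of 73 were higher on CAF (beside 45.7% of all probe sets), with a median of 0.04 against -0.0084 over all probe sets. Over the 14413 probe sets above the median signal, where the members lie, the median was 0.0175. Marker lists shifted as well, although 0 of their genes passed. Of 14 monocyte markers 0 were above 0 (median -0.24, 7 lower at an unadjusted p under 0.05), of 11 NK cell markers 1 (median -0.20), of 10 B cell markers 9 (median 0.21) and of 18 T cell markers 11 (median 0.03). Of 13 neutrophil markers 1 was above 0 (median -0.27), of 13 erythroid markers 12 (median 0.19) and of 5 platelet markers 5 (median 0.11). The mean monocyte marker signal was 9.84 to 10.42 in WKY CAF rats, against 10.28 to 10.56 in WKY STD rats. Of the mitochondrial ribosomal protein genes 49 of 68 were above 0 (median 0.05), and of the ribosome biogenesis genes 56 of 73 (median 0.05). The part of the cell mixture in this shift was not tested beyond the fit with the marker score given below. In LEW rats 33 of 73 were higher (beside 47.6%), with a median of -0.0057 against -0.0042, and against -0.0050 over the probe sets above the median signal.

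The 5 genes of smallest p in WKY rats were Rps12, Rpl8, Rplp1, Rpl35a and Rps21. Rps12 read 11.35, 11.48, 11.51, 11.41 and 11.41 in WKY CAF rats, against the WKY STD values of 11.20 to 11.34 given above. The groups did not overlap, but the difference of 0.18 (SE 0.05, 95% interval 0.08 to 0.28) had an adjusted p of 0.239. Rpl8 differed by 0.15 (adjusted p = 0.294), the stalk protein Rplp1 by 0.09 (adjusted p = 0.452) without overlap, Rpl35a of the large subunit by 0.11 (adjusted p = 0.514) and Rps21 of the small subunit by 0.14 (adjusted p = 0.573). Groups that did not overlap in this direction were found for these 2 genes (Rps12 and Rplp1) of 73 and for 1.11% of all probe sets. In LEW rats the smallest p values were those of Rpl6 (-0.12, adjusted p = 0.884), Rpl23 (-0.14, adjusted p = 0.911), Rpl36 (-0.12, adjusted p = 0.922), all of the large subunit, Rpl37l1 (-0.07, adjusted p = 0.934) and Rps24 of the small subunit (0.11, adjusted p = 0.946).

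The intervals bound what a diet effect on these signals could have been. The 95% interval lay within a 1.2-fold change in either direction for 65 of 73 genes in WKY rats and for 67 in LEW rats, and within 1.5-fold for 72 in both, with Rps25 as the exception. The diet by strain interaction, obtained by subtracting the diet difference of LEW rats from that of WKY rats, passed for 0 of 73 genes and 0% of all probe sets with limma, and 2 of 73 had an unadjusted p under 0.05 (2.74%, against 5.95%). It was above 0 for 64 of 73 (beside 48.2%), with a median of 0.05 against -0.0049 over all probe sets. Over the 14413 probe sets above the median signal the median of the interaction was 0.0190. The smallest p values were those of Rpl8 (0.15, SE 0.06, adjusted p = 0.817), Rps12 (0.15, SE 0.07, adjusted p = 0.822), Rpl35a (0.13, adjusted p = 0.858), Rpl9 (0.12, adjusted p = 0.872) and Rps4y2 (-0.14, adjusted p = 0.875). The strain and diet comparisons share the WKY STD and LEW STD arrays, so that Rps12, lower in WKY STD rats, enters both the strain difference on STD and the diet difference in WKY rats. With the T and B cell marker score as a covariate, the median of the members was 0.00682 for the diet in WKY rats and 0.00388 for the interaction. Marker lists also shifted in the interaction. Above 0 were 0 of 13 neutrophil (median -0.62), 0 of 14 monocyte (-0.23), 3 of 11 NK cell (-0.09) and 3 of 13 erythroid markers (-0.35). So were 10 of 10 B cell (0.28), 13 of 18 T cell (0.12) and 5 of 5 platelet markers (0.10). Their part in the interaction was not tested beyond this score.

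**Figure D4:**
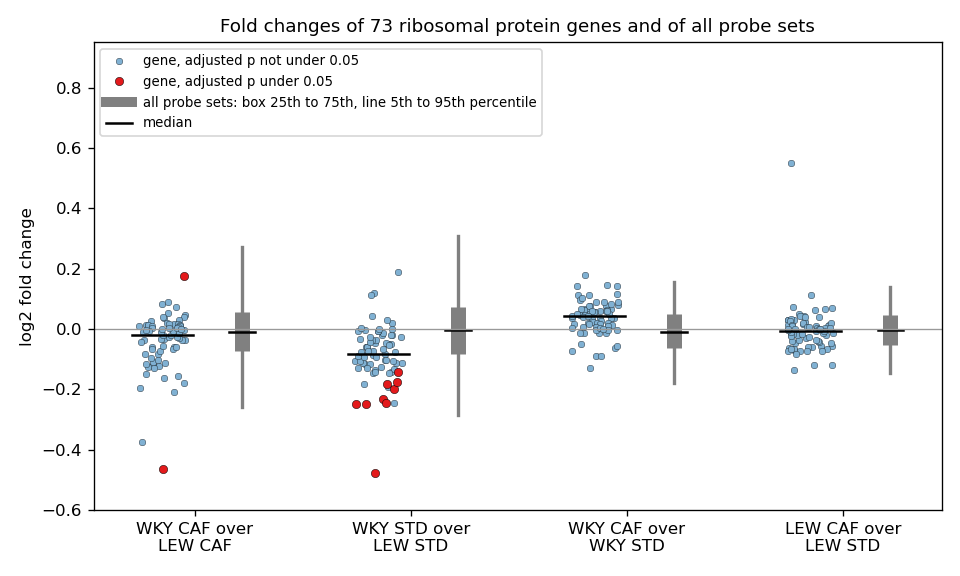
Log2 fold changes (y axis) of the 73 genes in 4 comparisons, with 1 point per gene, and beside them the spread of all 28826 probe sets. Points of genes that passed are 9 below 0 on STD and 1 on each side of 0 on CAF, none passed between the diets, and the point at 0.55 in the LEW diet comparison is Rps25.

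Rps25, a small subunit protein used by some viral RNAs to recruit ribosomes, had the widest spread of the members, and only 6 probe sets of the whole table varied more within groups. Its member probe set read 12.55, 12.54, 12.63, 12.53 and 9.50 in WKY CAF rats, 12.40, 12.53, 12.59, 10.07 and 12.22 in WKY STD rats, 12.58, 12.18, 12.32, 12.29 and 12.26 in LEW CAF rats and 12.43, 12.27, 11.86, 10.05 and 12.26 in LEW STD rats. WKY CAF rat 5, WKY STD rat 4 and LEW STD rat 4 were the low ones. The second Rps25 probe set read between 11.72 and 11.96 in all 20 rats, with 11.82, 11.75 and 11.79 in these 3. A probe set of Rps20, the third of 5 by mean signal, was also lowest in these rats within each group, at 10.55, 10.26 and 10.06, whereas the member probe set of Rps20 read 13.29, 13.32 and 13.27 there. None of the strain or diet differences of Rps25 passed on either probe set, and on the second the strain difference was -0.01 on CAF and -0.07 on STD.

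**Figure D5:**
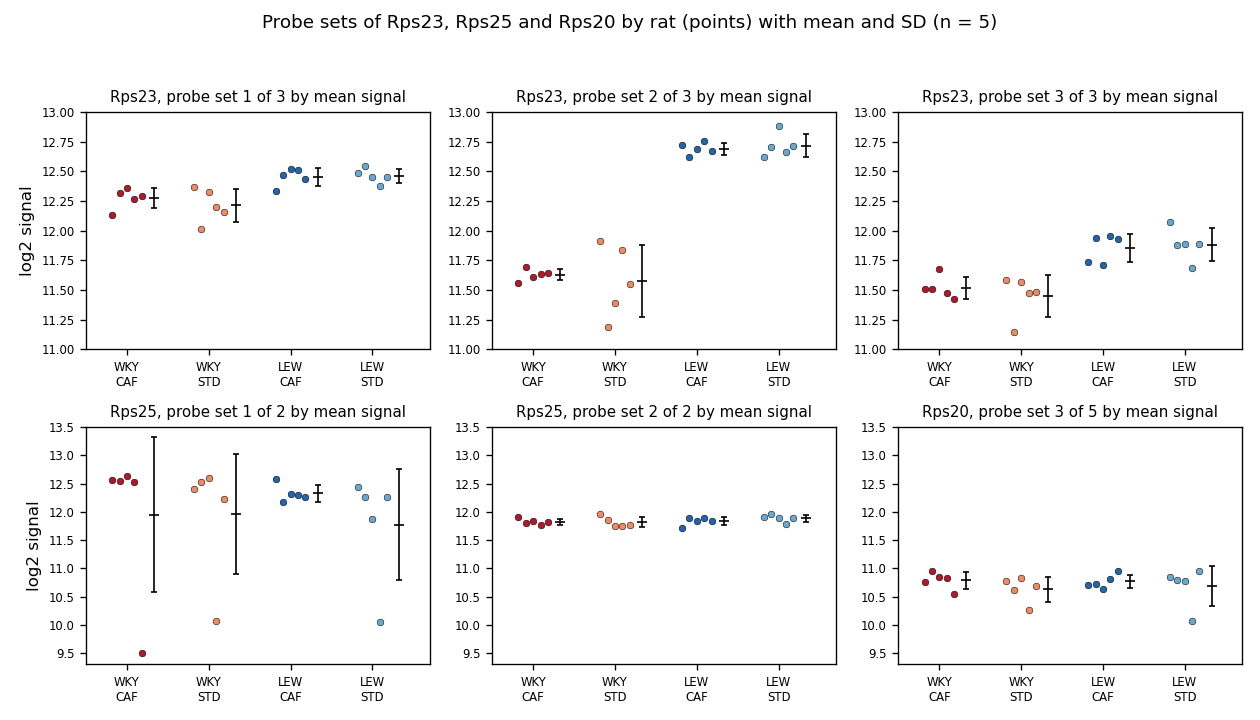
Log2 signal (y axis) of the 3 probe sets of Rps23, the 2 of Rps25 and the third of Rps20 in the 4 groups, with 1 point per rat and the mean ± SD of 5 rats. The second Rps23 probe set separates the strains by more than the others, and the 3 low rats of the first Rps25 probe set, at 9.50 to 10.07, are not low on the second.

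Genes that act with the ribosome were examined from lists of their own. A list of translation factors and TOP mRNAs had 37 measured genes, whose start sites were not examined, so that not each of them is taken as a TOP mRNA. Of the 37, 0 were higher and 2 lower in WKY STD rats. These were Eif5b, which joins the subunits (-0.31, SE 0.08, adjusted p = 0.0144), and Eif2s3, a subunit of the factor that brings the initiator tRNA (-0.17, SE 0.05, adjusted p = 0.0208). At an unadjusted p under 0.05, 3 of the 37 were higher and 5 lower (21.6%, beside 23.3% of all probe sets). On CAF, Eif6, which keeps free large subunits from joining, was higher (0.19, SE 0.06, adjusted p = 0.0425) and Fau, whose product includes a small subunit protein, was lower (-0.23, SE 0.07, adjusted p = 0.0496). Of all probe sets, 5.88% were higher and 5.38% lower on STD, and 4.24% and 3.34% on CAF. The counts of this list are therefore read as no result about the list. The median of this list was -0.01 on STD and -0.01 on CAF, against -0.08 and -0.02 for the members.

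Of 13 regulators of TOP mRNAs, Eif4ebp1, a repressor of cap-dependent translation that mTOR inactivates, was lower in WKY rats on both diets (-0.45, SE 0.11, adjusted p = 0.00841 on STD, and -0.44, SE 0.11, adjusted p = 0.0132 on CAF). On STD, Rheb, the GTPase that activates mTOR (0.19, SE 0.05, adjusted p = 0.0107), and Mxd1, an antagonist of Myc (0.36, SE 0.11, adjusted p = 0.0367), were higher. Mtor itself did not pass, with 0.08 on CAF (adjusted p = 0.687). Of the 13, 2 were higher and 1 lower on STD, and 0 higher and 1 lower on CAF. The shares of all probe sets given above stand beside these counts. Between the diets, 0 genes of either list passed with limma in either strain. At an unadjusted p under 0.05 there were 2 of the regulators in WKY rats, 1 higher and 1 lower (15.4%, beside 8.81% of all probe sets). In LEW rats there was 1 gene of the list of translation factors and TOP mRNAs, which was higher (2.7%, beside 5.46%).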

How the data were processed

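RNA of 20 rats was hybridised by the authors to Affymetrix Rat Gene 1.0 ST arrays. The authors deposited 1 table of log2 signals for 28826 probe sets, normalised with RMA according to the methods, whereas the submitters' notes name MAS5 without a version. The values, with array medians of 6.83 to 6.90, were used as deposited. Groups came from the sample titles. Gene symbols came from the platform annotation, which lists 15209 probe sets with 1 symbol, 306 with several and leaves 13311 unlisted.

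Group means of all 20 arrays were fitted with limma 3.58.1 in R 4.3.3, without a trend, with 16 residual and 3.67 prior degrees of freedom, and p-values were adjusted by Benjamini-Hochberg over all probe sets. The fit was tested on simulated data for WKY CAF against LEW CAF over 28826 probe sets, where 88 of 100 probe sets changed 1.5-fold and 96 of 100 changed 2-fold were recovered. Smaller changes, such as those of the members, were not simulated, so the recovery at their size is not known. Python 3.11.15 was used for summaries and motifs. The members and gene lists were chosen with earlier results of these data known. Named for each comparison were the members that passed, or the 5 of smallest p where under 5 passed, and also the 3 of highest and the 3 of lowest mean signal, the 5 of largest SD within groups, the copies and Rps19bp1, and 2 to 4 genes of each other list by adjusted p. Rps20 and Rpl21, and the genes with other called probe sets, were named after their values were seen. The number of rats limits the precision. The alternatives were array centring, quantile normalisation, a signal filter, a variance trend, a replicate block, marker scores as covariates, the fit of 2 groups, the mean of a gene's probe sets and the omission of each array in turn. Leaving out the 4 arrays of high heat shock signal was added after seeing the data. The labels number the rats of each group but name no shared litter or day.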

Additional observations from a re-analysis of the deposited data

Results flagged for a closer look

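A rat whose distance from the nearest other rat of its group exceeded Dixon's 95% critical share of the group's range was found in 7 of 124 groups. These were examined over 30 named genes and the median deviation of the members, and for genes not chosen by their spread chance alone gives about 1 in 20. The 30 genes include the 5 named for the largest SD within groups, Rps25 and Rps27 among them, to which this chance share does not apply. Rps25 accounted for 3 of the 7. It was at 9.50 in WKY CAF rat 5 against 12.53 to 12.63 in the other 4, at 10.07 in WKY STD rat 4 against 12.22 to 12.59, and at 10.05 in LEW STD rat 4 against 11.86 to 12.43. Rpl8, which passed between the strains on STD, was at 11.32 in LEW STD rat 4 against 11.41 to 11.43 in the others. In LEW STD rat 1, Rpl28 was at 13.76 against 13.87 to 13.89 and Rps27 at 7.49 against 7.02 to 7.15. Rps19bp1 was at 7.52 in WKY STD rat 3 against 7.67 to 7.73. No test of a difference between the diet effects of the strains passed for the members.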

How the results depend on the processing

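Precision is limited by 5 rats per group, and a probe set can read several copies of a gene. Between the strains on CAF, 0 genes were higher (1 as reported) with each array centred on its median, with the mean of a gene's probe sets and without the 4 arrays of high heat shock signal, an alternative chosen after seeing the data. With the mean of the probe sets the lower gene on CAF was Rps23 instead of Rps9. On CAF, 2 genes were lower (1 as reported), with Rps26 added, under quantile normalisation, the filter on probe sets above the median signal, the variance trend and the replicate block. On STD, 11 genes were lower (9 as reported) with array centring, quantile normalisation and the variance trend, with Rpl10a and Rpl29 added, and 10 with the filter. The count was 1 with the T and B cell marker score as a covariate, where the median was 0.0105, 8 with the heat shock score, 7 without the 4 arrays, 7 with the mean of the probe sets and 4 with the fit of the 2 STD groups alone, which has fewer degrees of freedom. The median of the interaction was 0.00388 with the same score. Rpl37l1 between the diets in LEW rats turned to 0.0447 (-0.07 as reported) with the mean of its 5 probe sets. The cause of these moves was not tested. Leaving out 1 array gave 0 to 1 higher and 1 to 3 lower genes on CAF, and 0 to 1 higher and 6 to 14 lower genes on STD. Rps26 joined Rps9 on CAF without LEW STD rat 4, WKY CAF rat 1 or WKY STD rat 2, in the last case with Rps23, and without WKY STD rat 3, Rpl30 was higher on STD. Same-numbered rats of different groups had correlations of -0.18 to 0.43 (median 0.06, 30 pairs). Rats of different numbers had -0.44 to 0.43 (median -0.02, 120 pairs). With the replicate block 8 genes were lower on STD, without Rps15a. Over all probe sets the block gave 1765 higher and 1619 lower on STD, against 1695 and 1552 without it. Whether the numbers mark a shared batch was not tested further. No member passed between the diets or in the interaction under any alternative.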

Other observations

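The mitochondrial ribosome, which translates the mRNAs of mitochondrial DNA, has its own protein genes, and those that passed between the strains lay in both directions. Of 68 measured, 2 were higher and 5 lower in WKY STD rats and 2 were higher and 3 lower in WKY CAF rats, with medians of -0.06 and -0.05. These counts stand beside 5.88% higher and 5.38% lower of all probe sets on STD and 4.24% and 3.34% on CAF, so that the shares (2.94% and 7.35% on STD, 2.94% and 4.41% on CAF) are read as no result about the list. Mrps10 was lower on both diets (-0.77, SE 0.12, adjusted p = 1.27e-04 on STD, and -0.74, SE 0.12, adjusted p = 2.45e-04 on CAF), as was Mrpl42 (-0.42, SE 0.07, adjusted p = 5.41e-04 on STD, and -0.29, SE 0.07, adjusted p = 0.0169 on CAF). Mrps26 was higher on both (0.22, SE 0.07, adjusted p = 0.0349 on STD, and 0.44, SE 0.07, adjusted p = 1.55e-04 on CAF), and so was Mrpl18 (0.32 on STD and 0.49 on CAF).

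Of 73 measured genes of ribosome biogenesis, 5 were higher and 6 lower in WKY STD rats and 4 higher and 2 lower in WKY CAF rats (6.85% and 8.22% on STD, 5.48% and 2.74% on CAF, beside the shares of all probe sets given above). Polr1b, the second largest subunit of RNA polymerase I, which transcribes ribosomal RNA, was lower on both diets (-0.54, SE 0.06, adjusted p = 2.33e-06 on STD, and -0.28, SE 0.06, adjusted p = 0.00393 on CAF). Polr1e, another subunit of this polymerase, was higher on STD (0.31, SE 0.06, adjusted p = 0.00292) and at 0.17 on CAF (adjusted p = 0.138). The nucleolar protein Surf6 was higher on both diets, by 0.19 on STD (SE 0.05, adjusted p = 0.0105) and by 0.22 on CAF (SE 0.05, adjusted p = 0.00334). Of the 141 genes of these lists, 0 passed between the diets with limma. In WKY rats 12 had an unadjusted p under 0.05, where 8.81% of all probe sets did. In LEW rats there was 1, where 5.46% did.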
